A study of Homo sapiens with 30 samples.

Results

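The cytosolic heat shock chaperones are the proteins that bind unfolded or partly folded clients in the cytosol and nucleus. The set described here held 10 genes: the constitutive HSP70 HSPA8, the HSP90 pair HSP90AA1 and HSP90AB1, the J-domain cochaperones DNAJA1, DNAJB1 and DNAJB4, the nucleotide exchange factors HSPH1 and BAG3, the small heat shock protein HSPB1, and HSF1, the transcription factor that controls them. A probe set, the group of short oligonucleotides by which the array reads a transcript, belonged to the set if its annotation named exactly 1 of these symbols. That rule took 20 of 54675 probe sets, for 9 of the 10 genes. HSPA8 was not analysed here, because its 4 probe sets each carried further symbols. Among the 19775 genes tested, each of the 9 was represented by its probe set with the highest mean signal, and the other probe sets are given beside it.

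RNA came from A375, a human melanoma cell line, on 30 Affymetrix U133 Plus 2.0 arrays. Cells were given 650 nM MLN4924, an inhibitor of the NEDD8-activating enzyme that stops the cullin-RING ubiquitin ligases from being activated, or 0.065% DMSO, its vehicle. They were taken after 1, 2, 4, 8 and 24 h, with 3 arrays for each treatment and time. The comparison asks which transcripts changed with the drug, and when.

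In resting cells HSF1 is held inactive by the chaperones themselves. When misfolded protein occupies them, HSF1 forms trimers, binds heat shock elements in the promoters of its targets and raises their transcription. The HSP70 cycle is then driven by J-domain proteins, which deliver clients and stimulate ATP hydrolysis, and by exchange factors, which release them, while HSP90 takes over partly folded kinases and receptors and small heat shock proteins hold aggregating ones.

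A heat shock element is built of GAA units in alternating orientation, so the promoters of the members were searched for such letters. RefSeq windows of the 250 bases before each transcription start, on build GRCh38.p14, were read on both strands. The longer motif was GAANNTTCNNGAA or TTCNNGAANNTTC, and it was present in 155 of 35116 windows, or 0.441%. The shorter motif, which the longer one contains, was GAANNTTC or TTCNNGAA, and it was present in 4067 windows, or 11.6%. The windows of 9 members were searched, HSPA8 among them, and HSF1 was left out of this search. These 9 genes had 15 windows, of which 3 held the longer motif and 7 the shorter. Counted by gene, with a match in any window, the longer motif occurred in 3 of the 9 (HSP90AA1, HSP90AB1 and HSPA8) and the shorter in 7. The shares of all windows above are by window and not by gene. Neither was found in the windows of HSPH1 and BAG3, which says only that these letters are not there. The matched stretches of 6 measured genes are shown so that they can be set beside the responses. They were taken from chr1:78004821-78004868 on the plus strand for DNAJB4, chr19:14518417-14518494 on the minus strand for DNAJB1, chr9:33025055-33025102 on the plus strand for DNAJA1, chr7:76302471-76302518 on the plus strand for HSPB1, chr14:102087100-102087152 on the minus strand for HSP90AA1 and chr6:44247758-44247863 on the plus strand for HSP90AB1. DNAJB4, DNAJB1, HSP90AA1 and HSP90AB1 each had further windows at other annotated starts, and those held neither motif. All stretches shown lie upstream of the annotated start of their own window. They are written 5′ to 3′ on the gene's strand, with the longer motif in capitals where it occurred and the shorter one otherwise.
DNAJB4: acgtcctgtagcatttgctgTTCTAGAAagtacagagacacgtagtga
DNAJB1: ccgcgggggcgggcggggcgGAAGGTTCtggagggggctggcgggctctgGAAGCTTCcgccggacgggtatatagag
DNAJA1: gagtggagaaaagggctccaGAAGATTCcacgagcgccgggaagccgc
HSPB1: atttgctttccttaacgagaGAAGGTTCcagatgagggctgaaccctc
HSP90AA1: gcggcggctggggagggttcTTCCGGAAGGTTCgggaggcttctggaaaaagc
HSP90AB1: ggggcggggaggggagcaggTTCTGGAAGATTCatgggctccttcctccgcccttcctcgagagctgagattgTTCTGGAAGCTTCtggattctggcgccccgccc

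A match describes the letters only and shows no binding. Of the 3 genes with the longer motif, HSPA8 has no measurement here.

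The arrays had been scaled by the submitters, and each had a trimmed mean of 150.02. Signals were quantile normalized before testing, which left a median normalized signal of 36.58. Within groups, arrays correlated at 0.98703 to 0.99249. Arrays of different groups correlated at up to 0.99198, and no pair was identical. The ratio of the 3′ to the 5′ ACTB control probe sets, a sign of RNA integrity, ran from 1.144 to 1.744, and its highest values, 1.744 and 1.681, were those of replicates 1 and 2 of DMSO at 2 h. Of the melanocyte lineage markers, SOX10, MITF and S100B averaged 936, 317 and 423 in DMSO, whereas the pigment genes PMEL, TYR, MLANA and TYRP1 averaged 16.6 to 48.9, near or below the median signal. Markers of other cell types were mixed. Below the median lay PTPRC (12) of blood, CDH5 (7.72) and VWF (7.84) of endothelium, EPCAM (10.9) and CDH1 (7.54) of epithelium and COL1A2 (25.5) of fibroblasts. Above it lay HBB (142) and CD3E (47.2), PECAM1 (86), KRT18 (2300), KRT8 (98) and KRT5 (43.5), and COL1A1 (156), DCN (74) and LUM (66.1), of the same 4 types in that order. The labels do not say whether the 3 arrays of a group came from separate cultures, so every p-value measures only the spread between these arrays. In bulk RNA, fewer cells with a transcript and less transcript per cell cannot be told apart.

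**Figure D1:**
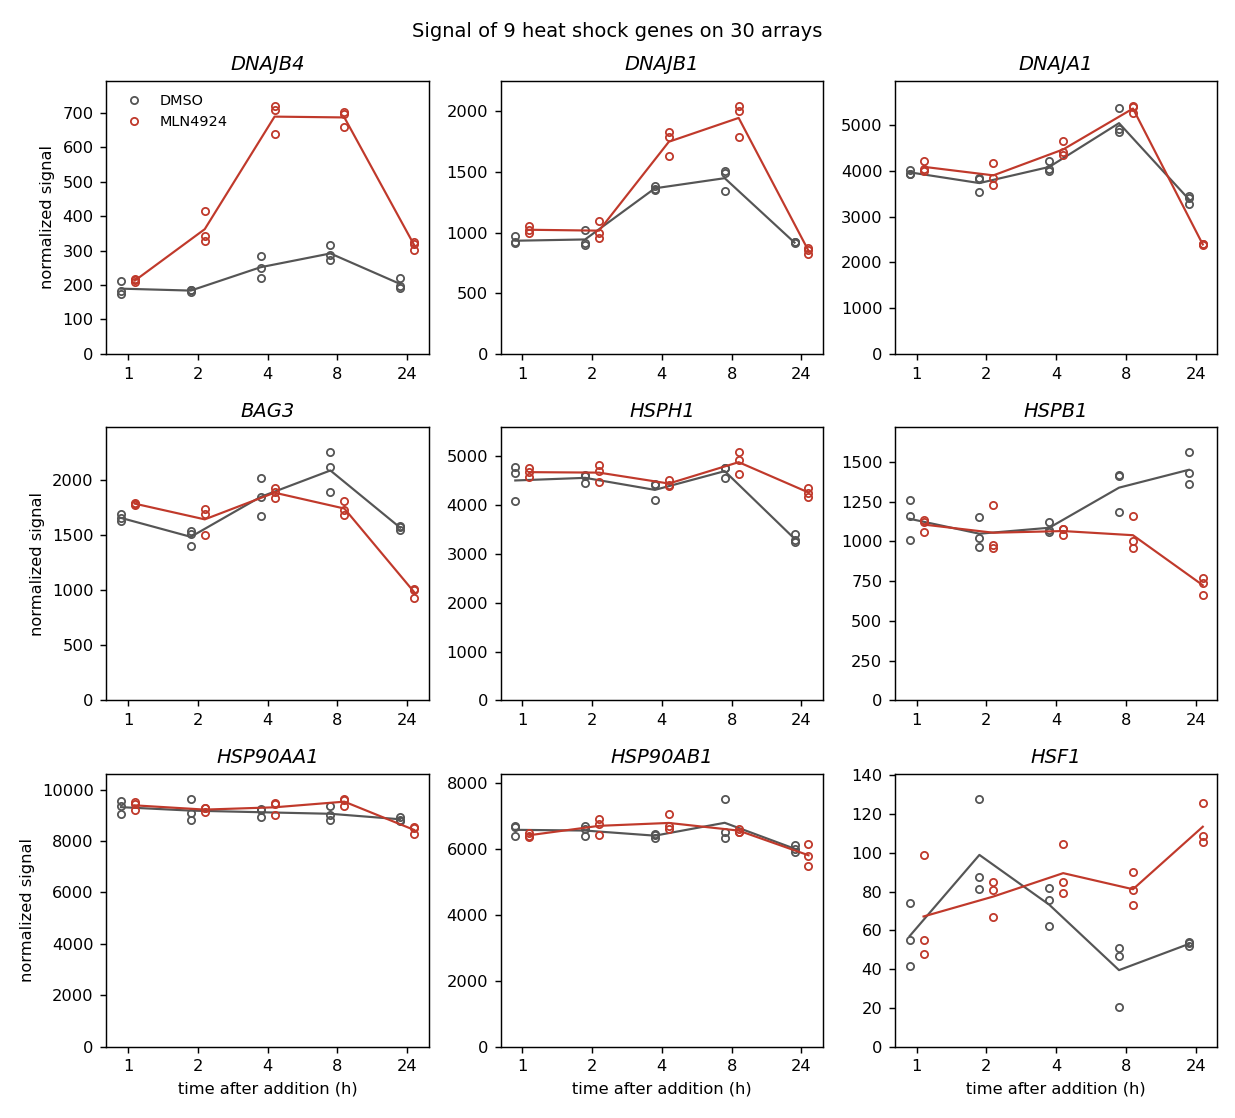
Normalized signal (y axis, linear and starting at 0 in each panel) of the 9 measured heat shock genes against time in hours, with circles for single arrays, lines through the means of 3 arrays, DMSO in grey and MLN4924 in red. DNAJB4 with the drug reached 708.2, 637.4 and 719.7 at 4 h against 285.5, 249 and 220.1 with DMSO, while the lines of HSP90AA1 and HSP90AB1 stay close to each other.

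The heat shock genes did not respond as a block. Compared with DMSO at the same time, DNAJB4 was higher from 2 h on and DNAJB1 at 4 and 8 h. BAG3 and HSPB1 were lower at 24 h and, less firmly, at 8 h, and DNAJA1 was lower at 24 h. HSPH1 was higher only at 24 h among the times tested. From 1 to 24 h HSPH1 changed by -0.44 with DMSO and by -0.13, not called, with the drug. Changes are differences of mean log2(signal + 32), which understates the change of dim genes, and a change was called at an adjusted p below 0.05 in limma. By an F test of the 5 drug effects together, 7 of the 9 genes were called, beside 32.6% of all genes. The exceptions were HSP90AA1 (adjusted p = 0.577) and HSP90AB1 (adjusted p = 0.695).

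At 1 h none of the 9 was called in either direction, beside 0.00506% of all genes called. At 2 h DNAJB4 alone was called, upward, when 0.344% of genes rose and 0.212% fell. At 4 h 2 members rose, when 1.84% of genes did, and none fell, beside 1.57% of genes. At 8 h 3 rose and 2 fell, beside 8.35% of genes that rose and 6.83% that fell. That split depended on the scaling, with 6 up and 0 down when arrays were centred on their medians and 0 down with signals as deposited. Of all 19775 genes, 3605 were called in either direction with median centring and 3263 with signals as deposited, against 3002 with quantile normalization. At 24 h 3 rose and 3 fell, beside 15.9% and 18.1%. The median change of the 9 stayed small throughout. It was 0.057, 0.033, 0.083, 0.073 and -0.069 at the 5 times in order, against -0.002, -0.014, -0.005, 0.004 and 0.003 for all genes. At 24 h the MLN4924 and DMSO arrays did not overlap for 8 of the 9 genes, and this was so for 44.6% of all genes. Of the 20 member probe sets taken singly, 0, 2, 4, 6 and 10 were called at the 5 times in order, beside 0.0201%, 0.313%, 2.05%, 9.74% and 24.8% of all probe sets. The 10 at 24 h were 5 higher and 5 lower.

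Whether the drug effect itself moved between consecutive times was tested by interaction contrasts. From 1 to 2 h the effect rose for 1 member, DNAJB4, as it did for 0.101% of genes. From 2 to 4 h and from 4 to 8 h no member was called, beside 0.48% and 1.54% of genes. From 8 to 24 h the effect rose for 1 member, HSPH1, and fell for 5, namely DNAJB1, DNAJA1, DNAJB4, BAG3 and HSPB1. Over that interval it rose for 8.23% and fell for 11.3% of genes, and the median was -0.403 over the members and -0.009 over all genes.

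**Figure D2:**
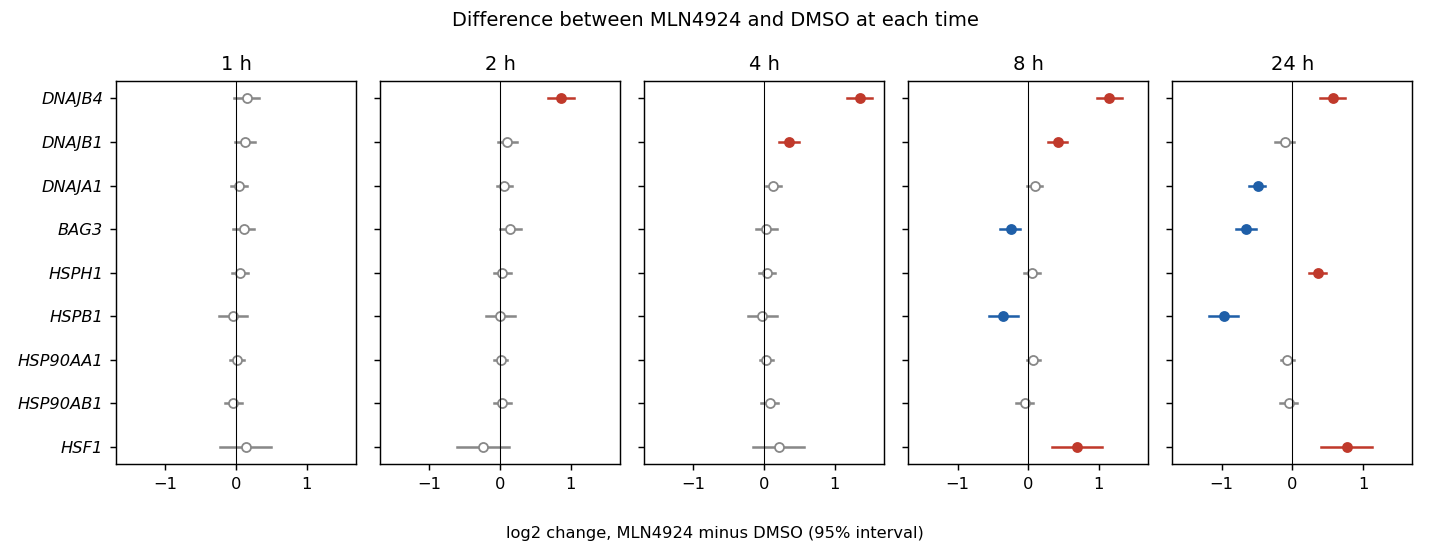
Drug effect of MLN4924 (log2 change against DMSO at the same time, x axis) for each of the 9 genes, with a panel for each time. Genes are on the y axis and lines are 95% intervals. Filled red points were called higher, filled blue points were called lower, and open grey points were not called. DNAJB4 goes from 0.86 at 2 h through 1.35 at 4 h to 0.57 at 24 h, and BAG3 and HSPB1 go from near 0 at 4 h to -0.66 and -0.97 at 24 h.

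Among the J-domain cochaperones, DNAJB4 gave the largest change of any member at any time. Its arrays at 1 h read 174.8, 211.4 and 182 with DMSO and 217.5, 213.1 and 208.1 with MLN4924, which overlap. By 2 h DMSO gave 185.2, 180.7 and 185.4 and MLN4924 gave 342.3, 414.8 and 328.8. From this time on every drug array was above every vehicle array of the same time. The 4 h arrays read 285.5, 249 and 220.1 with DMSO and 708.2, 637.4 and 719.7 with the drug. Those of 8 h read 286.5, 316.7 and 271.3 with DMSO and 658.5, 703.1 and 696.6 with the drug. The 24 h arrays read 220, 191.3 and 197.4 with DMSO and 320.2, 325.9 and 301.6 with the drug, so the gap had narrowed but had not closed.

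The DNAJB4 change was 0.15 at 1 h (SE 0.09, adjusted p = 1), where the 95% interval ran from -0.03 to 0.33. It was 1.82-fold at 2 h (log2 0.86, SE 0.09, adjusted p = 1.08e-06), 2.55-fold at 4 h (log2 1.35, SE 0.09, adjusted p = 1.22e-10), 2.22-fold at 8 h (log2 1.15, SE 0.09, adjusted p = 5.76e-10) and 1.48-fold at 24 h (log2 0.57, SE 0.09, adjusted p = 7.83e-06). The effect at 2 h exceeded that at 1 h by 0.71 (SE 0.12, adjusted p = 0.00684), and the effect at 24 h was below that at 8 h by a log2 difference of -0.58 (SE 0.12, adjusted p = 0.000899). The further step of 0.49 from 2 to 4 h was not called (adjusted p = 0.0794), although it was without replicate 1 of DMSO at 4 h (0.57, adjusted p = 0.0325) or without replicate 2 of MLN4924 at 2 h (0.58, adjusted p = 0.0227).

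Ordered by level, the drug groups at 4 h (688 ± 44.6, SD, n = 3) and 8 h (686 ± 24.1) came first and did not differ beyond their spread. The drug groups at 2 h (362 ± 46.3) and 24 h (316 ± 12.7) followed, then DMSO at 8 h (291 ± 23.1), whose arrays overlapped those of the drug at 24 h. The remaining groups lay between 184 and 252.

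The vehicle arrays at 2 h included the 2 with the highest ACTB ratios, and the mean ratio at that time was 1.563 with DMSO and 1.285 with the drug. With the ratio as a covariate the 2 h change of DNAJB4 was 0.87 (adjusted p = 6.04e-05), and without those 2 arrays it was 0.85 (adjusted p = 0.00149). In a fit of only the 6 arrays of that time the size was 0.86 and the call was lost (adjusted p = 0.113). The other probe set of DNAJB4 rose as well. Its arrays at 4 h read 177.1, 159.5 and 128.3 with DMSO and 463.7, 440.8 and 409.8 with MLN4924, and its changes of 0.96, 1.34, 0.55 and 0.56 at 2, 4, 8 and 24 h were all called. When the effect declined depended on the probe set. On this one, 203811_s_at, the effect fell between 4 and 8 h (-0.79, adjusted p = 0.0142) and did not change by a called amount between 8 and 24 h (0.01, 95% interval -0.32 to 0.33, adjusted p = 0.99).

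DNAJB1, the J-domain protein of the heat-inducible HSP70 cycle, rose later and less. Its arrays at 4 h read 1379, 1351 and 1362 with DMSO and 1785, 1630 and 1827 with MLN4924. At 8 h they read 1509, 1490 and 1343 with DMSO and 2043, 1788 and 2000 with the drug. The groups did not overlap at either time. The change was 1.27-fold at 4 h (log2 0.35, SE 0.07, adjusted p = 0.00191) and 1.34-fold at 8 h (log2 0.42, SE 0.07, adjusted p = 6.89e-05). With only the 6 arrays of 4 h the call there was lost (adjusted p = 0.078).

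By 24 h the order of the DNAJB1 groups had turned, with 912, 920.9 and 917.7 for DMSO and 872.1, 822.1 and 855.9 for the drug. That difference was not called (log2 -0.11, 95% interval -0.24 to 0.03, adjusted p = 0.254). The loss of the effect between 8 and 24 h was itself called, at -0.52 (SE 0.09, adjusted p = 0.000177). The dimmer probe set of DNAJB1 changed by 0.55 at 4 h (adjusted p = 0.0373), by 0.39 at 8 h, where it was not called (adjusted p = 0.0834), and by 0.14 at 24 h. Its change of effect from 8 to 24 h was -0.25 and was not called (adjusted p = 0.539).

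DNAJA1, a farnesylated J-domain protein that serves HSC70, showed no called change up to 8 h and then fell. Its arrays at 8 h, 4842, 5377 and 4919 with DMSO and 5402, 5424 and 5268 with MLN4924, overlapped and held the highest levels of the course. At 24 h they read 3282, 3419 and 3446 with DMSO and 2408, 2375 and 2396 with the drug, without overlap. The change at 24 h was 0.71-fold (log2 -0.49, SE 0.05, adjusted p = 6.5e-08), and the other DNAJA1 probe set changed by -0.57. With median centring the 24 h change of DNAJA1 was -0.31, still called (adjusted p = 0.0107). At 8 h the change was 0.09 (95% interval -0.02 to 0.20, adjusted p = 0.331). With arrays centred on their medians in place of quantile normalization it was 0.37 (adjusted p = 0.00599), and with signals as deposited 0.26 (adjusted p = 0.0188). From 8 to 24 h the effect dropped by 0.58 on the log2 scale (SE 0.08, adjusted p = 3.7e-06).

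The drug effects on the 2 nucleotide exchange factors went in opposite directions at 24 h. BAG3, which links HSP70 to small heat shock proteins and to selective autophagy, had arrays of 2023, 1848 and 1672 with DMSO and 1925, 1839 and 1894 with MLN4924 at 4 h, which overlap. Those at 8 h read 2253, 2116 and 1894 with DMSO and 1730, 1684 and 1812 with the drug. At 24 h the values were 1580, 1576 and 1548 against 1015, 933.4 and 1001. Every drug array was below every vehicle array at both later times.

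Against DMSO, BAG3 was 0.838-fold at 8 h (log2 -0.25, SE 0.07, adjusted p = 0.0132) and 0.634-fold at 24 h (log2 -0.66, SE 0.07, adjusted p = 3.54e-08). From 1 to 8 h BAG3 changed by 0.32 with DMSO and by -0.04, not called, with the drug. The 8 h call for BAG3 was lost with median centring (-0.04, adjusted p = 0.808), with signals as deposited (-0.15, adjusted p = 0.14), with only the 6 arrays of that time (adjusted p = 0.146), without replicate 1 of DMSO (-0.20, adjusted p = 0.093) and without replicate 2 of MLN4924 (-0.23, adjusted p = 0.0594). The 24 h call for BAG3 was kept under every alternative that gave a value. The effect at 24 h was below that at 8 h by a log2 difference of -0.40 (SE 0.10, adjusted p = 0.00405). BAG3 had 1 usable probe set, so no other reading was at hand.

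HSPH1, the HSP110 that acts as an exchange factor and disaggregase with HSP70, was level with its vehicle until 8 h, with changes between 0.03 and 0.06. Its arrays at 8 h read 4565, 4761 and 4761 with DMSO and 4642, 5082 and 4914 with the drug. At 24 h they were 3293, 3234 and 3406 with DMSO and 4243, 4172 and 4360 with MLN4924. The vehicle arrays at 24 h held the lowest HSPH1 values of the course and did not overlap the drug arrays.

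The HSPH1 change at 24 h was 1.28-fold (log2 0.36, SE 0.06, adjusted p = 1.42e-05). It exceeded the 8 h effect by 0.31 (SE 0.08, adjusted p = 0.00722), a difference that was not called with median centring (0.20, adjusted p = 0.491) or signals as deposited (0.24, adjusted p = 0.249), nor on its other probe sets (0.35 and 0.37, adjusted p = 0.0801 and 0.242). At 8 h median centring gave a called change for HSPH1 of 0.35 (adjusted p = 0.033) where quantile normalization gave 0.05. Of its other probe sets, 235573_at changed by 0.28 at 24 h (adjusted p = 0.0228) and 208744_x_at, a probe set whose suffix marks probes shared with other transcripts, by 0.07 (adjusted p = 0.783).

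**Figure D3:**
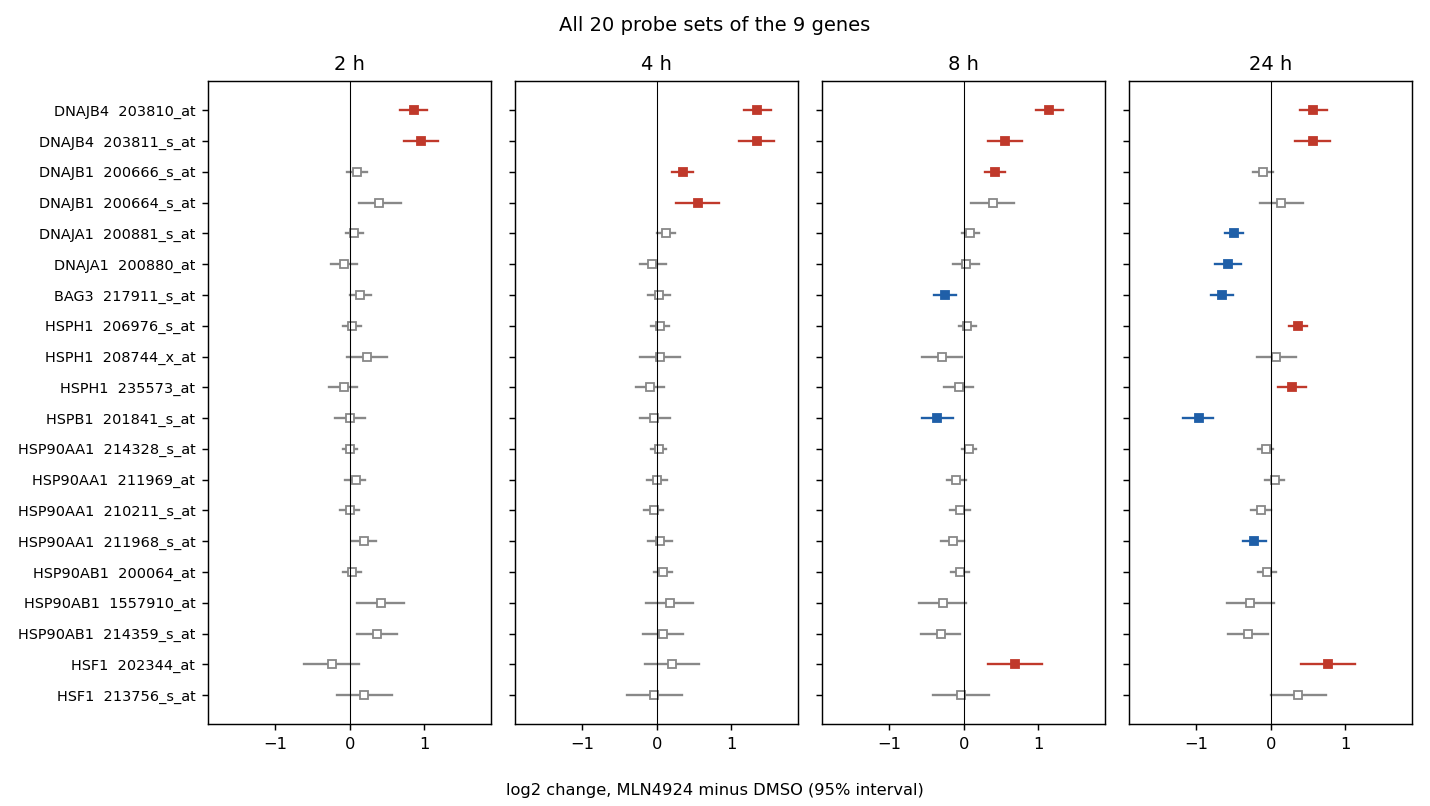
Drug effect (log2 change of MLN4924 against DMSO, with its 95% interval) of each of the 20 member probe sets at 2, 4, 8 and 24 h, with red for called higher, blue for called lower and open grey for not called. Both DNAJB4 probe sets are red at all 4 times, whereas those of HSP90AA1 and HSP90AB1 are open apart from 211968_s_at at 24 h, at -0.22.

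HSP90AA1 and HSP90AB1 encode the stress-inducible and the constitutive cytosolic HSP90, which are close paralogs. Over the 30 arrays HSP90AA1 ran from 8260 to 9645, a 1.17-fold range, and HSP90AB1 from 5484 to 7516, a 1.37-fold range. These were the narrowest ranges among the 9 genes, each read on its brightest probe set. Other probe sets of the HSP90 pair varied more. Group means ran from 4800 to 6770 on 211968_s_at of HSP90AA1. On 1557910_at and 214359_s_at of HSP90AB1 they ran from 4540 to 6930 and from 3120 to 4700. The HSP90AA1 arrays at 4 h read 8941, 9191 and 9225 with DMSO and 9425, 9027 and 9479 with MLN4924, which overlap. At 24 h they read 8787, 8805 and 8941 with DMSO and 8540, 8492 and 8260 with the drug, which do not. Neither gene was called at any time. The 24 h change was -0.07 for HSP90AA1 (95% interval -0.16 to 0.03, adjusted p = 0.288) and -0.05 for HSP90AB1 (95% interval -0.17 to 0.07, adjusted p = 0.591).

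The 8 h change of HSP90AA1 was 0.07 (95% interval -0.02 to 0.17) and became 0.40 (adjusted p = 0.0486) with median centring. The median change of the 1822 genes with a mean signal above 1000 was 0.238 at 8 h under that scaling and 0.005 under quantile normalization. Of the 4 probe sets of HSP90AA1, only 211968_s_at was called at 24 h (-0.22, adjusted p = 0.0328). The other probe sets of HSP90AB1, 1557910_at and 214359_s_at, read -0.28 (adjusted p = 0.22) and -0.31 (adjusted p = 0.0885) at 24 h.

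Replicates 1 and 2 of DMSO at 2 h were low on several of these probe sets. The HSP90AB1 probe set 1557910_at read 3860, 3866 and 5896 on the 3 vehicle arrays of that time, 214359_s_at read 2925, 2732 and 3699, and 208744_x_at of HSPH1 read 1085, 1141 and 1778. Those are the 2 arrays with the highest ACTB ratios, and the part of RNA integrity in these values was not tested. The 2 h changes of the HSP90AB1 probe sets, 0.42 and 0.37, were not called (adjusted p = 0.321 and 0.292).

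HSPB1, the small heat shock protein HSP27, had the largest fall against DMSO. Its arrays at 4 h read 1062, 1122 and 1074 with DMSO and 1076, 1040 and 1080 with MLN4924. At 8 h they read 1414, 1185 and 1416 with DMSO and 1002, 1157 and 958.3 with the drug. At 24 h they were 1430, 1361 and 1561 against 771.7, 739.1 and 662.7. The groups overlapped at 4 h and were apart at 8 and 24 h, with the vehicle arrays higher than at 4 h and the 24 h drug arrays lower.

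HSPB1 changed 0.782-fold at 8 h (log2 -0.36, SE 0.10, adjusted p = 0.0144) and 0.51-fold at 24 h (log2 -0.97, SE 0.10, adjusted p = 1.77e-08). Its effect at 24 h lay below that at 8 h by a log2 difference of -0.62 (SE 0.14, adjusted p = 0.00208). The 8 h call was lost with median centring (-0.16, adjusted p = 0.44), with signals as deposited (-0.28, adjusted p = 0.0872), with only the 6 arrays of that time (adjusted p = 0.11), and without any of 4 arrays, namely DMSO replicate 1 (-0.31, adjusted p = 0.0699), DMSO replicate 3 (-0.31, adjusted p = 0.0691), MLN4924 replicate 1 (-0.33, adjusted p = 0.0559) and MLN4924 replicate 3 (-0.30, adjusted p = 0.0788). The 24 h call for HSPB1 was kept under every alternative that gave a value.

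HSF1 itself was dim, with a median of 77.45 over the 30 arrays against the array median of 36.58. At 8 h its arrays read 20.35, 51.22 and 47.08 with DMSO and 72.91, 80.97 and 89.98 with MLN4924. At 24 h they read 53.44, 51.86 and 53.88 with DMSO and 105.9, 109 and 125.7 with the drug. The drug arrays were the higher at both times, although DMSO at 2 h, with 81.37, 128 and 87.63, reached as high.

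The HSF1 change was 1.61-fold at 8 h (log2 0.69, SE 0.17, adjusted p = 0.0074) and 1.71-fold at 24 h (log2 0.77, SE 0.17, adjusted p = 0.000959). With 1 in place of 32 added to the signal the 8 h change of HSF1 was 1.12 (adjusted p = 0.00837). At 8 h the call was lost with the mean of both HSF1 probe sets (0.33, adjusted p = 0.0888), with only the 6 arrays of that time (adjusted p = 0.0728) and without DMSO replicate 1 (0.48, adjusted p = 0.076). The other HSF1 probe set had group means of 22.1 to 41.5, around the array median, and changed by 0.37 at 24 h (adjusted p = 0.152).

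The vehicle groups were compared with DMSO at 1 h to see how far the genes moved in culture without the drug. These 4 comparisons share the 1 h arrays, and their vehicle arrays also enter the drug comparisons. At 2 h no member was called, beside 0.228% of all genes. At 4 h only DNAJB1 was called, by 0.53 (SE 0.07, adjusted p = 0.000175), beside 0.233% of genes that rose. At 8 h 4 members rose, when 0.485% of genes did, and their median change over the 9 genes was 0.223. DNAJB1 rose by 0.62 (SE 0.07, adjusted p = 1.12e-05), DNAJB4 by 0.55 (SE 0.09, adjusted p = 0.00112), DNAJA1 by 0.34 (SE 0.05, adjusted p = 0.0012) and BAG3 by 0.32 (SE 0.07, adjusted p = 0.0186).

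The BAG3 rise in vehicle lost its call with median centring (0.18, adjusted p = 0.267), with signals as deposited (0.26, adjusted p = 0.0673), and without DMSO replicates 1 or 3 at 1 h (0.32 and 0.31, adjusted p = 0.0718 and 0.0884) or 1 or 2 at 8 h (0.27 and 0.31, adjusted p = 0.106 and 0.0712). That of DNAJA1 lost it with median centring (0.13, adjusted p = 0.57) and signals as deposited (0.20, adjusted p = 0.222). DNAJB4 was also called at 4 h, by 0.44, without replicate 3 of DMSO at that time (adjusted p = 0.0387), where all arrays gave 0.35 (adjusted p = 0.102).

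By 24 h in vehicle, HSPH1 changed by -0.44 (SE 0.06, adjusted p = 4.12e-06) and DNAJA1 by -0.23 (SE 0.05, adjusted p = 0.00342), 2 members that fell, beside 8.49% of genes. HSP90AA1 changed by -0.07 (adjusted p = 0.32) and was not called, but its other probe sets were lower at 24 h than at 1 h. The vehicle means went from 9010 to 7030 (211969_at), 8150 to 6990 (210211_s_at) and 6320 to 5600 (211968_s_at). HSPB1 alone rose, by 0.34 (SE 0.10, adjusted p = 0.0165), beside 9.93% of genes. Its call was lost with median centring (0.28, adjusted p = 0.166), with signals as deposited (0.29, adjusted p = 0.0707), without replicate 2 of DMSO at 1 h (0.25, adjusted p = 0.109) and without replicate 3 at 24 h (0.29, adjusted p = 0.0879). The 24 h drug effects on HSPH1 and HSPB1 were therefore measured against vehicle levels that themselves differed from those at 1 h.

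In the drug groups, again against their own shared 1 h arrays, DNAJB4 was called at every later time, by 0.68, 1.56, 1.55 and 0.51 at 2, 4, 8 and 24 h. It was the only member called at 2 h, beside 0.354% of genes that rose. DNAJB1 joined it at 4 h with 0.75 (adjusted p = 3.64e-08), beside 2.27% of genes that rose, and reached 0.90 at 8 h (adjusted p = 5e-10). DNAJA1 was the third at 8 h, with 0.39 (adjusted p = 1.54e-05), beside 6.09% of genes that rose.

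At 24 h of the drug 2 members were above the 1 h level and 5 below, beside 14.3% and 15.5% of genes. BAG3 changed by -0.84 (adjusted p = 7.66e-10), DNAJA1 by -0.77 (adjusted p = 4.92e-11), HSPB1 by -0.59 (adjusted p = 3.64e-05) and DNAJB1 by -0.26 (adjusted p = 0.00362). The other DNAJB1 probe set, 200664_s_at, gave -0.04 and was not called (95% interval -0.32 to 0.25, adjusted p = 0.917). HSP90AA1 changed by -0.15 (adjusted p = 0.011), a sign that turned with median centring (0.04) and with signals as deposited (0.02). Those values are from 214328_s_at, and its other probe sets fell further. From 1 to 24 h of the drug, 210211_s_at went from 8250 ± 341 to 6400 ± 505 (SD, n = 3). Likewise 211968_s_at went from 6500 ± 538 to 4800 ± 74.1 and 211969_at from 8780 ± 853 to 7290 ± 110. HSF1 was higher by 0.58 (adjusted p = 0.0118), a call lost without replicate 1 or 3 of MLN4924 at 1 h (0.51 and 0.44, adjusted p = 0.0597 and 0.0894) or replicate 3 at 24 h (0.53, adjusted p = 0.0528). HSPH1 changed by -0.13 (95% interval -0.25 to -0.02) and was not called (adjusted p = 0.0841), although its 24 h arrays all lay below those of 1 h and its probe set 208744_x_at was called (-0.39, adjusted p = 0.0301).

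Over the 10 group means, DNAJA1 and BAG3 followed each other most closely among the members (Pearson r = 0.9), and HSPB1 and HSF1 were the most opposed (r = -0.85). These are descriptions over groups that share 1 time course and 1 scaling. Among 6007 genes called in the F test and brighter than the median, the patterns most like that of DNAJB4 over the 10 group means were those of KRTAP3-1 (r = 0.952), CBR1 (0.944), NEIL3 (0.937), KLHL42 (0.935) and PIAS4 (0.932). KRTAP3-1 changed by 2.11 at 4 h and 2.41 at 8 h and by 0.11 at 24 h, whereas NEIL3 changed by 1.08, 1.49 and 0.67. The mean pattern of the 9 members, each scaled to the same variance, was most like those of EPDR1 (0.962), WT1 (0.96), TMPO (0.958), BAG2 (0.946) and EIF4A3 (0.943).

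The members work with a wider chaperone network, and 79 further genes of it were followed in 7 lists, 73 of them with a usable probe set. The inducible HSP70 genes HSPA1A and HSPA1B, the HSP90 activator AHSA1 and HSF2 were among the 6 not analysed here. None of the 73 was called at 1 or 2 h. Of all genes, 0.00506% were called at 1 h, and 0.344% rose and 0.212% fell at 2 h. At 4 h 1.84% of all genes rose and 1.57% fell. At 4 h BAG2, an exchange factor and inhibitor of CHIP, rose by 0.45 (SE 0.11, adjusted p = 0.0139) and GRPEL1, the exchange factor of the mitochondrial HSP70, by 0.42 (SE 0.09, adjusted p = 0.00752). BAG2 lost its call with the mean of its probe sets (0.11, adjusted p = 0.601), with only the 6 arrays of 4 h (adjusted p = 0.17) and without DMSO replicate 2 or 3 or MLN4924 replicate 1 (adjusted p = 0.0529, 0.125 and 0.0914). GRPEL1 lost it without MLN4924 replicate 2 (0.38, adjusted p = 0.0503).

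In the list of HSP70 partners, 6 of 19 measured genes rose at 24 h and 5 fell, beside 15.9% and 18.1% of all genes, with a median change of -0.096 against 0.003 for all genes. HSPA4L, an HSP110 relative of HSPH1, went from 78.9 ± 9.78 to 269 ± 27.1 (SD, n = 3), a 2.71-fold rise (adjusted p = 2.47e-10). BAG1, an exchange factor that couples HSP70 to the proteasome, went from 359 ± 13.4 to 918 ± 63.2, a 2.43-fold rise (adjusted p = 1.83e-12). BAG5 rose by 0.88 and DNAJC7 by 0.82. With the mean of its probe sets DNAJC7 read 0.29, still called (adjusted p = 0.000453). The exchange factors of this network moved in both directions at 24 h. Beside those named, and chosen after their values were seen, HSPA4, a further HSP110, changed by -0.41 (adjusted p = 0.000288), BAG4 by -0.22 (adjusted p = 0.0491) and HSPBP1 by 0.45 (adjusted p = 0.0203). The 5 genes of the list that fell at 24 h were STUB1, DNAJB6, HSPA4, HSPA2 and BAG4. At 8 h BAG5 (0.38, adjusted p = 0.000441) and HSPA2 (0.42, adjusted p = 0.00419) rose, and STUB1, the ubiquitin ligase CHIP, fell by 0.50 on the log2 scale (adjusted p = 0.00104), a call lost with median centring (-0.28, adjusted p = 0.123) and with only the 6 arrays of 8 h (adjusted p = 0.0847). At 24 h STUB1 changed by -0.81 (adjusted p = 5.52e-07).

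Of the HSP90 cochaperones, 6 of 11 rose at 24 h and none fell (median 0.265), beside 15.9% and 18.1% of all genes, while HSP90AA1 and HSP90AB1 were not called. The kinase adaptor CDC37 rose by 0.98 (1010 ± 150 to 2030 ± 164, adjusted p = 3.23e-05) and TTC4 by 0.62 (adjusted p = 0.00242). SUGT1 and PPID rose by 0.37 and 0.34, but not on probe sets free of the _x_at and _s_at suffixes (0.08 and 0.03, adjusted p = 0.757 and 0.909). At 8 h the immunophilin FKBP5 rose by 0.44 (adjusted p = 0.00202), a call lost with the mean of its probe sets (0.22, adjusted p = 0.11), and FKBP4 by 0.31 (adjusted p = 0.042), a call lost under 12 of 20 alternatives, 5 of which left out 1 array (0.21 without MLN4924 replicate 2, adjusted p = 0.249).

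Beside HSPB1, which fell, 1 of 7 further small heat shock proteins was called at 24 h, where 15.9% of all genes rose and 18.1% fell. This was HSPB8, the partner of BAG3, which rose from 138 ± 6.41 to 317 ± 20.2 (SD, n = 3; 2.05-fold, log2 1.04, adjusted p = 2.79e-12). On its probe set without an _x_at or _s_at suffix the change of HSPB8 was 0.52 (adjusted p = 0.00696). HSPB8 and BAG3 thus moved apart at 24 h. Of the 3 heat shock factors and binding proteins measured besides HSF1, HSBP1, which binds the HSF1 trimer, fell by 0.79 on the log2 scale (2150 ± 67.9 against 3750 ± 146), a change not seen on its probe set without such a suffix (-0.07, adjusted p = 0.688).

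**Figure D4:**
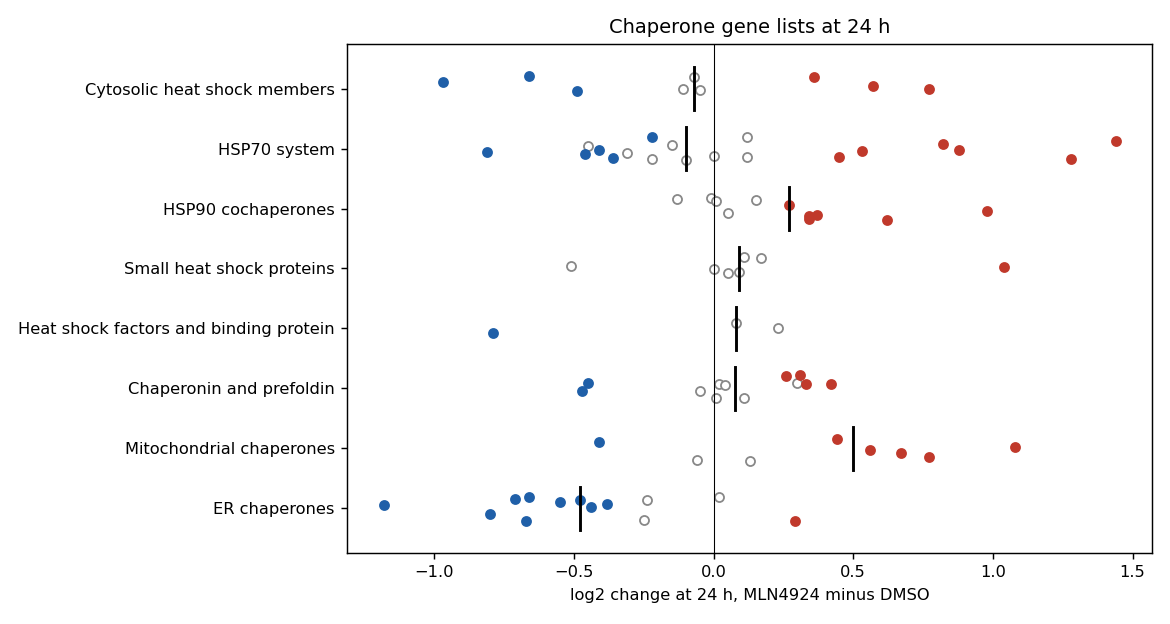
Log2 change of MLN4924 against DMSO at 24 h (x axis) for each measured gene of the heat shock members and of 7 further chaperone lists; black bars are list medians, red and blue points were called higher and lower, grey ones were not called, and the vertical scatter has no meaning. Mitochondrial chaperones lie mostly to the right (median 0.498), ER chaperones mostly to the left (median -0.476), and the members on both sides (median -0.069).

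Chaperones of the mitochondria and the ER were followed for comparison. Of 8 mitochondrial chaperones, 5 rose and 1 fell at 24 h, beside 15.9% and 18.1% of all genes. GRPEL1 rose by 1.08 (adjusted p = 6.54e-10), HSPA9, the mitochondrial HSP70, by 0.77 (adjusted p = 8.09e-11), DNAJA3 by 0.67 (adjusted p = 1.38e-08) and HSCB by 0.56 (adjusted p = 0.00517). HSPA9 had already risen by 0.32 at 8 h (adjusted p = 0.000296). With median centring the 8 h change of HSPA9 was 0.57, and on a probe set without the suffixes its 24 h change was 1.41. Of 13 ER chaperones, 1 rose and 9 fell at 24 h, beside the same 15.9% and 18.1% of all genes. PDIA4 changed by -1.18 (adjusted p = 5.84e-10; -0.61 on a probe set without the suffixes), HSP90B1, the HSP90 of the ER, by -0.80 (adjusted p = 9.34e-06), MANF by -0.71 (adjusted p = 2.9e-06) and CRELD2 by -0.67 (adjusted p = 0.0097), the last not called without MLN4924 replicate 2 (-0.50, adjusted p = 0.0798).

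At 8 h 5 of the 13 ER chaperones fell (median -0.268), beside 6.83% of all genes. HSP90B1 changed by -0.55 (adjusted p = 0.00258), DNAJB11 by -0.42 (adjusted p = 0.000593), HSPA5 by -0.34 (adjusted p = 0.0114) and PDIA4 by -0.31 (adjusted p = 0.0304). With median centring none of these 4 was called, at -0.33, -0.24, -0.04 and -0.13, and HSPA5 and PDIA4 also lost their calls with signals as deposited (-0.16 and -0.25). Leaving out 1 array ended the HSPA5 call for DMSO replicates 1 and 2 (-0.30 each) and MLN4924 replicate 2 (-0.29), and the PDIA4 call for DMSO replicates 1 and 3 (-0.30 and -0.27) and MLN4924 replicate 3 (-0.27). Of 12 chaperonin and prefoldin subunits, which fold actin and tubulin, 4 rose and 2 fell at 24 h, beside 15.9% and 18.1% of all genes. PFDN2 rose by 0.42 and CCT3 by 0.33, and CCT6A and PFDN4 fell by 0.47 and 0.45 on the log2 scale. The last 2 read 0.34 and 0.00 on probe sets without the _x_at and _s_at suffixes, so their direction depends on the probe set.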

How the data were processed

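RNA from A375 cells was measured on 30 arrays, in 10 groups of 3 formed by treatment and time as the labels give them. Per the labels, the deposited table holds the authors' signal intensity for each of 54675 probe sets, and Affymetrix Expression Console appears in the submitters' processing notes. Its version and algorithm settings: not given in the sources used here. From the values, the signals were intensities on a linear scale, and each array had been scaled to a trimmed mean of 150.02 (2% trimmed at each end). The number of arrays limits the precision, beside the scaling and the choice of probe set, since intensities carry no read depth.

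The intensities were quantile normalized, 32 was added and log2 was taken. Probe sets with exactly 1 symbol were kept, with symbols updated through their gene identifiers, and control probe sets were left out. Each of 19775 genes was represented by its probe set with the highest mean. limma 3.58.1 in R 4.3.3 fitted a mean for each group on the 30 arrays together, with 20 degrees of freedom left and 3.034 added by the prior, and with moderated tests and Benjamini-Hochberg adjustment within each contrast, and a change was called at an adjusted p below 0.05. The script was checked on simulated data. Replicate numbers were not used as pairs: over 15 pairs of same-numbered DMSO and MLN4924 arrays, deviations from the group means correlated at -0.106 to 0.074, and 0 pairs exceeded 0.1. Each 95% interval is the moderated one and is not adjusted for the number of genes.

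All members are described at every time. Of each other list, up to 4 called genes per time with the largest absolute change are named, among those whose groups do not overlap. The genes most like DNAJB4 and like the members' mean were the 5 with the highest Pearson correlation over group means. The members and the lists were chosen with earlier results of these data known. Alternatives changed the normalization (median centring, or signals as deposited), the added value, the probe set chosen, the filter on dim genes, the arrays fitted, the variance prior, the adjustment, the ACTB ratio as a covariate, a replicate block and each array left out in turn.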

Additional observations from a re-analysis of the deposited data

Results flagged for a closer look

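The drug effect, that is the log2 change of MLN4924 against DMSO, differed between consecutive times for 7 results by an interaction contrast in limma. From 1 to 2 h the effect on DNAJB4 rose by 0.71 (SE 0.12, adjusted p = 0.00684). From 8 to 24 h the effect on HSPH1 rose by 0.31 (SE 0.08, adjusted p = 0.00722). Over the same interval the effect changed by -0.52 for DNAJB1 (SE 0.09, adjusted p = 0.000177), -0.58 for DNAJA1 (SE 0.08, adjusted p = 3.7e-06), -0.58 for DNAJB4 (SE 0.12, adjusted p = 0.000899), -0.40 for BAG3 (SE 0.10, adjusted p = 0.00405) and -0.62 for HSPB1 (SE 0.14, adjusted p = 0.00208). The other DNAJB4 probe set, 203811_s_at, gave 0.01 for this contrast (adjusted p = 0.99) and a called fall of the effect from 4 to 8 h (-0.79, adjusted p = 0.0142). That of DNAJB1 gave -0.25, not called (adjusted p = 0.539). Between 8 and 24 h, 8.23% of all genes had an effect that rose and 11.3% an effect that fell. Between 1 and 2 h the effect rose for 0.101% of all genes.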

How the results depend on the processing

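Of 14 called drug effects on members, 9 kept their call under every alternative that gave a value, and the 5 that lost it under at least 1 were DNAJB4 at 2 h, DNAJB1 at 4 h and BAG3, HSPB1 and HSF1 at 8 h. None of the 45 member drug effects reversed. Fitting only the 6 arrays compared left 0 members called up at 2 h, 1 up at 4 h and 0 down at 8 h. Without _x_at and _s_at probe sets, which leaves BAG3, HSPB1 and DNAJB1 with no value, 1 rose at 4 h, 0 fell at 8 h and 1 fell at 24 h. Median centring gave 6 up and 0 down at 8 h, signals as deposited 0 down at 8 h, and each gave 0 upward effect changes from 8 to 24 h, 2 DMSO rises from 1 to 8 h and 0 from 1 to 24 h. Of all 19775 genes, these 2 scalings called 3605 and 3263 at 8 h in either direction, in that order. Leaving out 1 array gave 0 to 2 members down at 8 h, 0 to 1 upward effect changes from 2 to 4 h, 1 to 2 DMSO rises to 4 h, 0 to 1 to 24 h, and 1 to 2 rises with MLN4924 to 24 h. Without _x_at and _s_at probe sets the 24 h changes of CCT6A and PFDN4 were 0.34 and 0.00. On 214328_s_at, the change of HSP90AA1 with MLN4924 from 1 to 24 h was 0.04 with median centring and 0.02 with signals as deposited. Apart from fits with fewer arrays or probe sets, the cause of these differences was not tested.

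With the replicate number as a block, 153 of 153 member values kept their call and direction. Values that changed sign with neither value called numbered 117 of 2960. All genes called ranged over the alternatives from 0 to 136 at 1 h (main value 1), 10 to 437 at 2 h (110), 296 to 1119 at 4 h (673), 1495 to 5321 at 8 h (3002) and 5087 to 13552 at 24 h (6723). Under median centring the median change of all genes at 8 h was 0.084, against 0.004 with quantile normalization.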
